A study of Mus musculus with 13 samples.

Results

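The miRNA genes Mir34b, Mir34c and Mir449a were examined in small RNA sequences from sorted mouse male germ cells. They are 3 of the 2201 miRNA genes of the GENCODE mouse annotation and were chosen by name, as genes of the miR-34 and miR-449 family known from meiotic cells. The choice was made with earlier results of these data known. Their reads are those of 19 to 25 nt that lie, without a mismatch and in sense, within the annotated miRNA transcript. Every group came from C57BL6/J mice aged 3 to 4 weeks, and cells were sorted by flow cytometry after staining of DNA with Hoechst-33342. The first set held 5 libraries, each sequenced as 1 library: 1 of spermatogonia (SG), 2 of leptotene/zygotene spermatocytes (LZ), 1 of pachytene/diplotene spermatocytes (PD) and 1 of round spermatids (RS). The second set held 2 biological samples of spermatogonia (SG_T) and 2 of leptotene/zygotene spermatocytes (LZ_T), each with 2 technical replicates, a 50-bp and a 100-bp run, whose reads were summed. No label gives a genotype. The headers of the tables deposited with all 8 libraries of the second set name a Pld6 knockout, and those of the first set name only the stage. Pld6 encodes a mitochondrial protein needed to make piRNAs, and germ cells of the knockout are lost in meiosis before the pachytene stage. The sets are therefore compared as sets, and genotype cannot be told apart from all else that separates them. The sources used here do not say whether the samples of a group came from separate mice, so p-values measure the spread between these samples, which may be technical.

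MicroRNAs are small RNAs cut from a hairpin precursor by Drosha and Dicer. An Argonaute protein holds one arm of the hairpin and finds target mRNAs mainly through the seed, bases 2 to 8 of the miRNA. The miR-34 and miR-449 family shares a seed and is best known from germ cells entering meiosis, round spermatids and multiciliated cells. Loss of the miR-34b/c and miR-449 clusters together impairs spermatogenesis and the ciliated airway, whereas loss of either alone is largely tolerated. Mir34a, the relative on another chromosome, is a target of p53 and is widely expressed in somatic tissues.

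Mir34b lies at chr9:51103562-51103645 and Mir34c at chr9:51103034-51103110, both on the minus strand of GRCm38 and 451 bases apart. In the GENCODE annotation both are within an intron of Btg4, which runs on the opposite strand. Mir449a lies at chr13:113037534-113037624 on the plus strand, within an intron of Cdc20b on the same strand, 35 bases past Mir449b and 1442 bases past Mir449c. The mature sequences of RefSeq (GRCm38.p6) are shown because the arms and the 5' ends used in each stage are described with them; the seed is in capitals, and the first sequence of each gene below is its 5' arm where one is shown.
miR-34b-5p: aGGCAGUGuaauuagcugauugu
miR-34b-3p: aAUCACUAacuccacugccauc
miR-34c-3p: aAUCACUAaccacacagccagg
miR-449a-5p: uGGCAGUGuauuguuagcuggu
miR-449a-3p: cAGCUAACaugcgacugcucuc
miR-34a-5p: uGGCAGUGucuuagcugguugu
The seed GGCAGUG of miR-34b-5p and miR-449a-5p occurred in 4 of the 1738 mature entries of the table, all of this family: miR-34a-5p, miR-34b-5p, miR-449a-5p and miR-449c-5p. miR-34c-5p, which is known to carry this seed as well, was not among the entries searched and is therefore named without its sequence. The 3' arms fall into other seed groups. miR-34b-3p and miR-34c-3p share AUCACUA and match at 17 of 22 positions, and the seed of miR-449a-3p was held by no other entry. No read that lay in Mir34b, Mir34c or Mir449a also lay in another of them.

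The 9 biological samples held between 1810805 and 29956080 reads, of which between 151495 and 2195136 were miRNA reads. Levels are given as reads of the gene in 1000000 miRNA reads (miRNA-RPM), the share of one gene among all miRNAs, and as reads in 1000000 reads of the library (RPM). The list of SG held 1 line without a count and may be incomplete. SG_T replicate 2 was the shallowest sample, and 3 counts there correspond to 19.8 miRNA-RPM. Both scales are shown since miRNAs made up 14.5% of reads in SG, 7.33% and 10.4% in the LZ libraries, 1.45% in PD cells and 1.98% in RS. Reads of 29 to 32 nt that start with U, which mark the piRNAs of pachytene cells and spermatids, made up 45.0% of reads in PD and 57.6% in RS, against 4.13% in SG, 7.15% to 9.71% in LZ, 1.03% to 1.54% in SG_T and 1.33% to 1.85% in LZ_T. The summed reads of 10 miRNAs of other cell types in the testis, among them Mir202 of gonadal somatic cells, Mir143 and Mir145a of smooth muscle and Mir126a of endothelium, served as a check of purity. They made up 1.71% of miRNA reads in SG, 0.687% to 1.26% in LZ, 0.696% in PD and 0.237% in RS, but 5.18% to 9.39% in SG_T and 10.3% to 12.4% in LZ_T. All 10 were detected in every sample of SG, LZ, SG_T and LZ_T, whereas Mir150 and Mir223 were at 0 in PD and RS and Mir451a also in RS. In bulk samples like these, fewer cells of a type and less RNA per cell cannot be told apart.

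Mir34c carried nearly all of the signal of the 3 genes and went from a minor miRNA in SG to the most abundant one in PD and RS. It had 1460 reads in SG, 39425 and 21194 in the LZ libraries, 65173 in PD cells and 121014 in RS. This was 0.0758% of miRNA reads in SG (95% Wilson interval 0.0720% to 0.0798%), 1.80% and 1.16% in the LZ libraries, 33.9% in PD cells (33.7% to 34.1%) and 48.7% in RS (48.5% to 48.9%). In rank among miRNA genes, Mir34c stood at 98 in SG, at 14 and 20 in LZ, and at 1 in both PD and RS. The stages did not overlap, and the order of levels was SG, LZ, PD and RS. The share was 19.5-fold higher in LZ than in SG, 22.9-fold higher in PD than in LZ and 1.44-fold higher in RS than in PD. SG, PD and RS have 1 library each, so within this set these steps have no replicate check and no test, and the intervals cover counting error only.

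The order of the stages was the same on both scales, but the size of the steps was not. In RPM, Mir34c measured 110 in SG, 1316 and 1214 in the LZ libraries, 4904 in PD cells and 9649 in RS. The step from SG to LZ was then 11.5-fold, that from LZ to PD 3.88-fold and that from PD to RS 1.97-fold, so the largest step of Mir34c was that from LZ to PD by share and that from SG to LZ in RPM. The share of miRNAs in the library was lower in PD than in LZ and that of reads of piRNA length higher, and the 22.9-fold step on the share of miRNA reads was 3.88-fold against all small RNAs of the library.

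**Figure D1:**
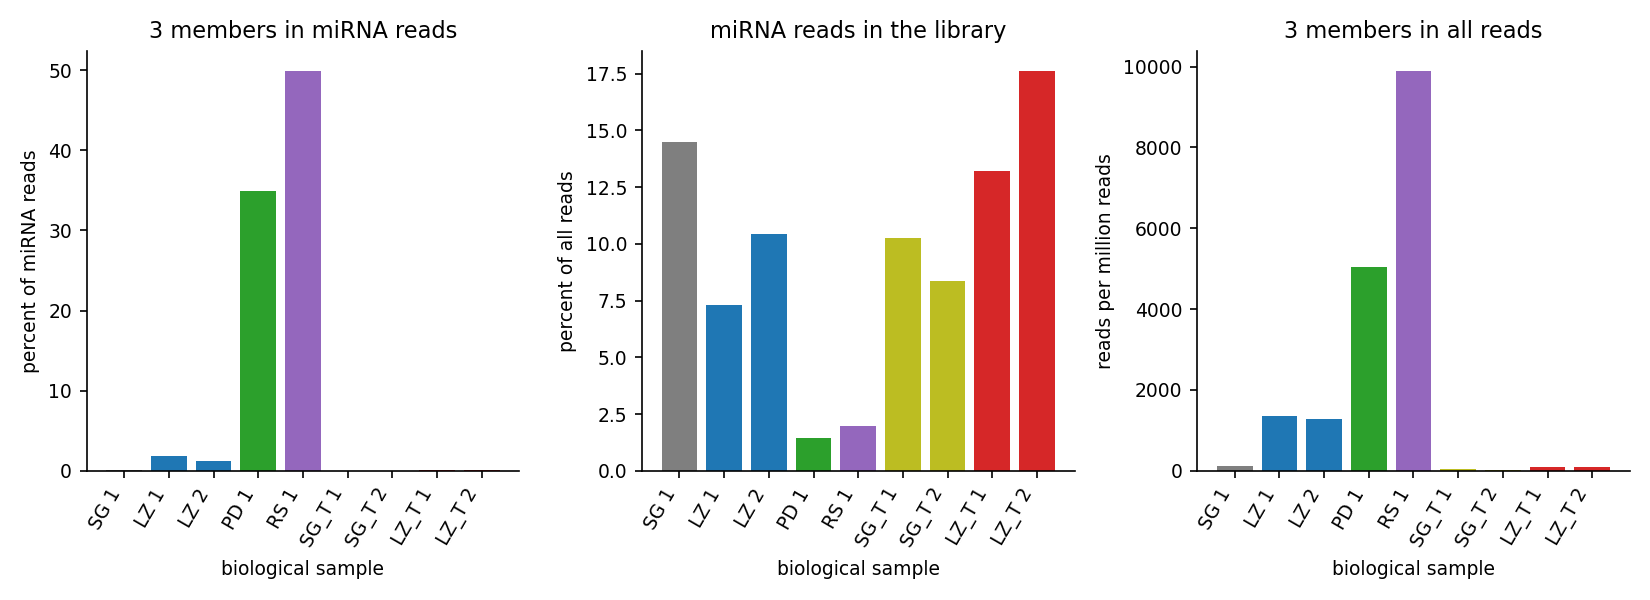
Bars show, for each biological sample, the summed reads of Mir34b, Mir34c and Mir449a as a percent of miRNA reads (left), miRNA reads as a percent of all reads (middle) and the same sum in RPM (right). The sum reached 34.9% of miRNA reads in PD and 49.9% in RS, where miRNA reads were 1.45% and 1.98% of the library; the bars of SG, SG_T and LZ_T are near 0 in the left panel because their sums were 0.0810% or less.

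Mir34b, transcribed next to Mir34c, was far less abundant and was higher at each later stage too. It had 41 reads in SG, 620 and 480 in the LZ libraries, 698 in PD cells and 1498 in RS. In miRNA-RPM this was 21.3 in SG (15.7 to 28.9), 282 and 263 in the LZ libraries, 3634 in PD cells and 6029 in RS, again without overlap between stages. The share was 12.8-fold higher in LZ than in SG, 13.3-fold higher in PD than in LZ and 1.66-fold higher in RS than in PD, and in RPM the steps were 7.81-fold, 2.18-fold and 2.27-fold. Mir34c gave 35.6 reads for each read of Mir34b in SG, 63.6 and 44.2 in the LZ libraries, 93.4 in PD cells and 80.8 in RS. The ligation of small RNAs in library preparation depends on their ends, so a ratio between 2 miRNAs need not be the ratio of their molecules.

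Mir449a, from the other cluster, followed the same course up to PD. Its 60 reads in SG, 810 and 705 in the LZ libraries, 1140 in PD cells and 1585 in RS correspond to 31.1, 369 and 387, 5934 and 6379 miRNA-RPM. The share was 12.1-fold higher in LZ than in SG and 15.7-fold higher in PD than in LZ. In RS it was 1.07-fold that of PD, and the counting intervals of the stages overlapped (5601 to 6288 in PD and 6074 to 6700 in RS). In RPM the last step was 1.47-fold, from 85.8 to 126. Against miRNA reads other than those of Mir34c, a scale chosen after seeing the data since Mir34c itself fills so much of the total, Mir449a measured 8982 reads in 1000000 in PD and 12436 in RS, and Mir34b 5499 and 11753.

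**Figure D2:**
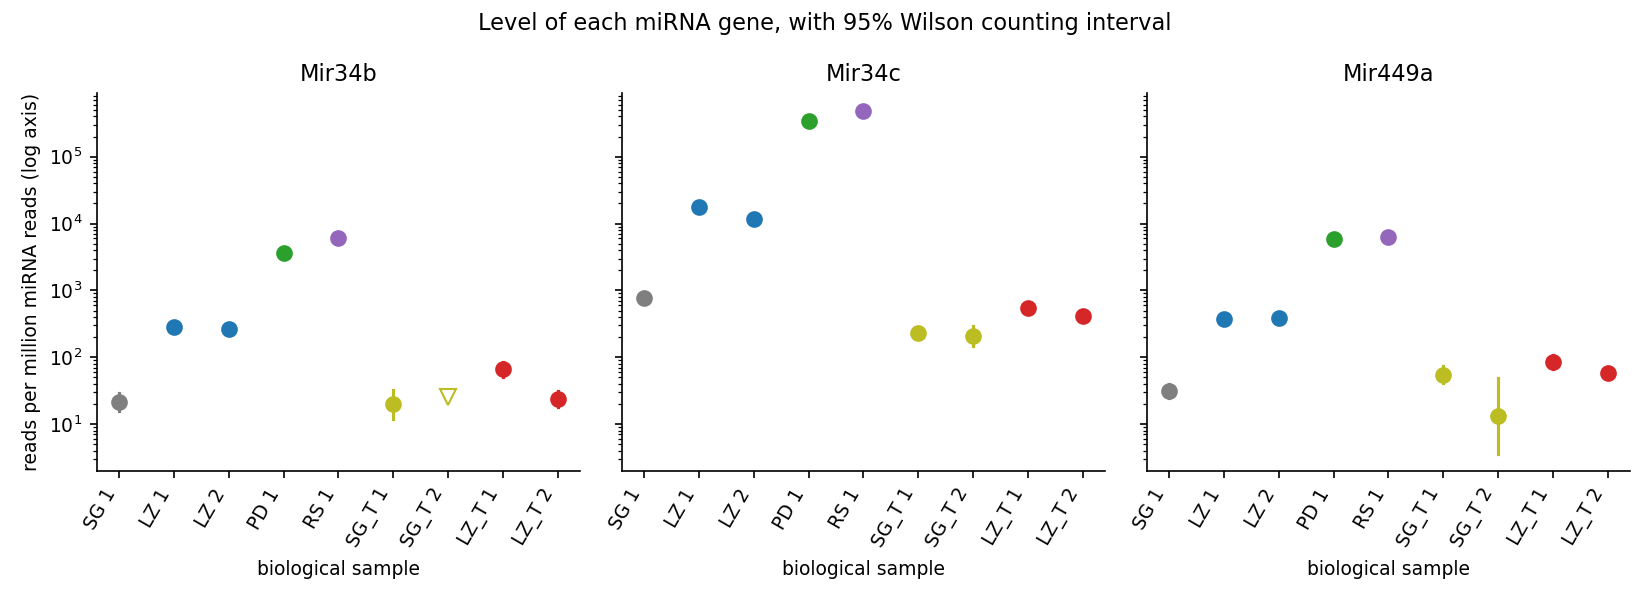
Points give the miRNA-RPM of each gene in the 9 biological samples on a log axis, lines the 95% Wilson counting interval, and the open triangle the upper limit of the interval for SG_T replicate 2, which had 0 reads of Mir34b. In the first set the level of each gene is higher in LZ than in SG and higher again in PD, and LZ_T lies below LZ for each of them.

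As background to these steps, genes over 2-fold higher were counted without a test. Of the 351 genes with at least 50 miRNA-RPM in either stage, 17 (4.84%) were over 2-fold higher in LZ with both LZ libraries above SG, and on the RPM scale 3.42% were. Mir34b, Mir34c and Mir449a were among them on both scales, but Mir34b and Mir449a reached 50 miRNA-RPM in LZ alone, so that passing this filter already required them to be higher in LZ. From LZ to PD 104 of 377 genes (27.6%) were over 2-fold higher, or 17.0% in RPM, and all 3 were among them on both scales. From PD to RS none of the 3 passed 2-fold on the share of miRNA reads, where 7.53% of genes did, and in RPM Mir34b alone did, where 16.9% of genes did.

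The other genes of the seed family stayed at or below 135 miRNA-RPM in the first set. Mir34a had 44 reads in SG, 32 and 44 in the LZ libraries, 0 in PD cells and 3 in RS, so that it stayed at or below 24.2 miRNA-RPM in each library of the first set. In PD, 0 reads allow up to 15.6 miRNA-RPM, the level of 3 counts. Mir449c, in the cluster of Mir449a, had 0 reads in SG, 59 and 58 in the LZ libraries, 26 in PD cells and 0 in RS, where 3 counts would be 1.56 miRNA-RPM in SG and 12.1 in RS. Its share was thus highest in PD at 135 miRNA-RPM, after 26.9 and 31.8 in the LZ libraries, and Mir449a measured 5934 in PD. In RPM, Mir449c measured 1.97 and 3.32 in the LZ libraries, and PD lay just below the lower of these. Mir449b, 35 bases from Mir449a, had 1 read in RS and 0 in the other 8 samples, where 3 counts would be between 1.37 and 19.8 miRNA-RPM.

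The 5' arm of Mir449a was the more abundant one in every sample, and the share of the 3' arm differed between stages. miR-449a-5p, which carries the family seed, had 54 reads in SG, 629 and 531 in the LZ libraries, 1084 in PD cells and 1580 in RS. miR-449a-3p had 6 reads in SG, 181 and 174 in the LZ libraries, 56 in PD cells and 5 in RS. The 3' arm was therefore 10% of the gene's reads in SG (95% Wilson interval 4.66% to 20.1%), 22.3% and 24.7% in the LZ libraries, 4.91% in PD cells (3.80% to 6.33%) and 0.315% in RS (0.135% to 0.736%). The intervals of LZ, PD and RS did not overlap. SG, PD and RS have 1 library each, so these intervals, like those of Mir34b below, cover counting error only. In RPM the 3' arm measured 4.21 in PD and 0.399 in RS, and the 5' arm 81.6 and 126. In LZ, 96.1% and 98.3% of the 3' arm reads began at the RefSeq 5' end of miR-449a-3p.

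Mir34b used both arms throughout, and its balance moved towards the 5' arm. The 3' arm made up 70.7% of its reads in SG (55.5% to 82.4%), 73.7% and 74.8% in the LZ libraries, 63.5% in PD cells (59.8% to 67.0%) and 46.5% in RS (43.9% to 49.0%). miR-34b-5p thus had 802 reads in RS against 696 of miR-34b-3p, whereas in LZ the 3' arm had 457 and 359 reads against 163 and 121. Mir34c reads came almost entirely from miR-34c-5p in the first set, where the 3' arm made up between 0.172% and 0.377%.

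**Figure D3:**
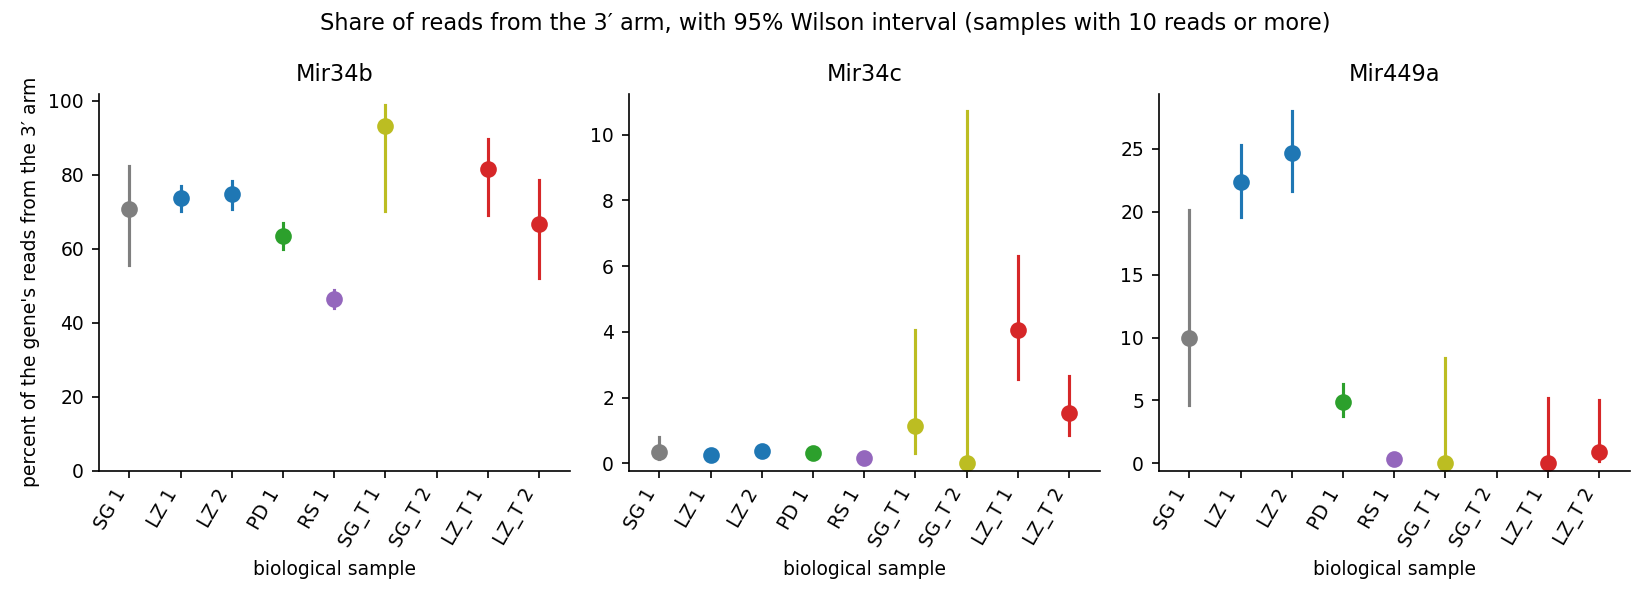
Points give the percent of each gene's reads that come from the 3' arm in each biological sample with 10 reads or more, and lines the 95% Wilson interval; the vertical axes differ between panels. The 3' arm of Mir449a is at 22.3% and 24.7% in LZ and at 0.315% in RS, and that of Mir34b at 73.7% and 74.8% in LZ and at 46.5% in RS.

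The 5' end of miR-34b-5p, which fixes its seed, was not uniform. Most reads began either at the RefSeq 5' end or 1 nt before it. The earlier start is shown here from the RefSeq hairpin at chr9:51103610-51103633 on the minus strand of GRCm38.p6, with its own bases 2 to 8 in capitals.
miR-34b-5p with 1 nt more at the 5' end: uAGGCAGUguaauuagcugauugu
The shifted seed AGGCAGU occurred in 0 of the 1738 mature entries. Reads with the earlier start numbered 71 and 46 in the LZ libraries, 137 in PD cells and 406 in RS, and reads with the RefSeq start 63 and 68 in the LZ libraries, 94 in PD cells and 335 in RS. The earlier start made up 43.6% and 38.0% of 5' arm reads in the LZ libraries, 53.7% in PD cells (47.6% to 59.7%) and 50.6% in RS (47.2% to 54.1%), so the intervals of PD and RS overlapped. A start 4 nt past the RefSeq end made up 17.2% and 5.79% in the LZ libraries, 9.02% in PD cells and 7.23% in RS. Mir449a differed: between 99.8% and 100% of its 5' arm reads in the first set began at the RefSeq end.

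Mir34c reads were uniform in length. Of its 5' arm reads, 89.3% in SG, 91.2% and 92.0% in the LZ libraries, 92.1% in PD cells and 87.2% in RS were 23 nt long. Reads whose last 1 to 3 nt did not match the hairpin, after at least 18 matching nt, were counted apart. Such added ends made up 14.5% of Mir34c reads in SG, 9.64% and 14.5% in the LZ libraries, 8.26% in PD cells and 11.5% in RS. A single U was the most common one, with 69.1% to 83.0% of these ends. Added ends cannot be told apart from errors in the last bases of a read, and the LZ libraries alone, at 9.64% and 14.5%, spanned most of the range over the stages, 8.26% to 14.5%.

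In the second set, Mir34c was a minor miRNA in both SG_T and LZ_T. It had 175 and 32 reads in SG_T and 445 and 784 in LZ_T, which is 230 and 211 miRNA-RPM in SG_T (mean 221 ± 13.2, SD, n = 2) and 541 and 413 in LZ_T (477 ± 90.7, SD, n = 2). The mean was 2.16-fold higher in LZ_T. In edgeR's quasi-likelihood test over 516 miRNA genes, the log2 fold change was 1.08 ± 0.61 (SE) with a Benjamini-Hochberg adjusted p of 0.260. Mir34b had 15 and 0 reads in SG_T and 54 and 45 in LZ_T, with a log2 fold change of 1.54 ± 0.71 (SE) and an adjusted p of 0.176 in edgeR. Mir449a had 42 and 2 reads in SG_T and 70 and 109 in LZ_T, with 0.84 ± 0.72 (SE) and an adjusted p of 0.544 in edgeR. None of the 3 passed an edgeR adjusted p of 0.05, and 1 of them, Mir34b, had an unadjusted p under 0.05. So had 117 of all 516 genes, 67 of them higher in LZ_T. The headers number the samples of both stages alike, but do not say that a number marks 1 mouse; with this number as a block, Mir34b passed, at 1.81 with an adjusted p of 0.0256 in edgeR. Of all 516 genes, 6 (1.16%) without the block were higher and 5 (0.969%) lower in LZ_T. With the block, 56 were higher and 37 lower.

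With total reads as library size the call changed for Mir34c and Mir34b. On this RPM scale the log2 fold change of Mir34c was 1.79 with an edgeR adjusted p of 0.00581, that of Mir34b 2.2 with 0.0280 and that of Mir449a 1.48 with 0.166. The median of all genes moved from -0.03 to 0.68 with this scale, and 128 genes were higher and 3 lower. Relative to that median, Mir34c was higher by 1.11 on either scale. The summed miRNAs of other cells were 5.18% and 9.39% of miRNA reads in SG_T and 10.3% and 12.4% in LZ_T. The sum does not stand for each marker: of the 9 tested by edgeR, 1 was higher and 1 lower in LZ_T. Their median log2 fold change was -0.27. Their part in the result was not tested.

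All 3 genes were lower in LZ_T than in LZ. For Mir34c the LZ libraries stood at 17960 and 11634 miRNA-RPM and the LZ_T samples at 541 and 413. The mean was 31.0-fold lower in LZ_T by this share, 17.5-fold lower in RPM, and by edgeR with TMM scaling over 635 genes the log2 fold change was -5.66 ± 0.49 (SE) with an adjusted p of 1.05e-26. For Mir34b the LZ libraries stood at 282 and 263 and the LZ_T samples at 65.7 and 23.7, with a log2 fold change of -3.40 ± 0.59 (SE) and an adjusted p of 1.75e-07 in edgeR. For Mir449a they stood at 369 and 387 against 85.2 and 57.4, with -3.10 ± 0.55 (SE) and an adjusted p of 2.62e-07 in edgeR. The test takes its spread from all genes together, which makes such small p-values possible with 2 samples a group. In this comparison 187 of 635 genes (29.4%) were lower and 139 (21.9%) higher, so a call by itself was common. Reads that lay in several genes were divided among them, so identical copies of a miRNA count here as separate genes. With only reads of 1 miRNA gene, 97 of 396 genes were lower and 93 higher. By total reads as library size 83 genes were lower and 303 higher, the median of all genes moved from -0.14 to 1.27, and the 3 genes remained lower, at -4.13 for Mir34c, -1.92 for Mir34b and -1.66 for Mir449a.

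Markers of other cells moved the other way in this comparison. Of the 10 listed, 8 were higher in LZ_T and 0 lower, with a median log2 fold change of 2.23, beside -0.14 for all genes tested and -3.40 for Mir34b, Mir34c and Mir449a. Mir202 had 41003 and 37988 reads in LZ_T and 496 and 650 in LZ. Their part in the result was not tested. In a fit chosen after seeing the data, these 10 miRNAs were left out of the library size and TMM scaling was not applied. The log2 fold change was then -4.80 for Mir34c, -2.49 for Mir34b and -2.26 for Mir449a, with edgeR adjusted p-values of 2.48e-06, 0.00332 and 0.000902. The median of all genes moved from -0.14 to 0.70 with this scale, and 242 genes were higher and 106 lower. With all miRNAs kept in and no TMM scaling, the mean share was already higher in LZ than in LZ_T by similar amounts. On the log2 scale these were 4.95 for Mir34c, 2.61 for Mir34b and 2.41 for Mir449a. The part of each change in scaling was not tested.

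**Figure D4:**
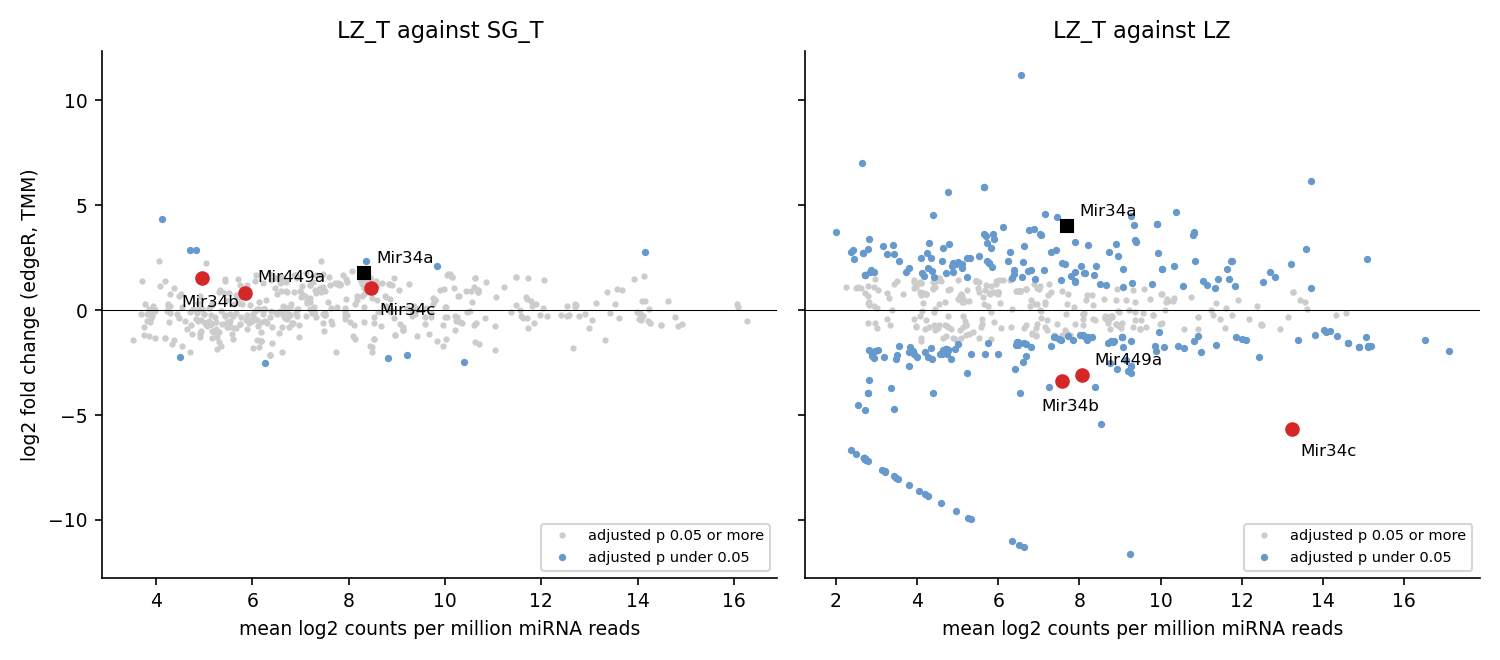
Each point is a miRNA gene, with its mean log2 level (counts scaled to 1000000 miRNA reads) on the horizontal axis and its edgeR log2 fold change on the vertical axis, for LZ_T against SG_T (left, 516 genes) and LZ_T against LZ (right, 635 genes); Mir34b, Mir34c and Mir449a are red circles and Mir34a is a black square. Against LZ the red points lie at -5.66, -3.40 and -3.10 and Mir34a at 4.01.

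Mir34a went against its family here. It had 143 and 14 reads in SG_T and 500 and 743 in LZ_T, or 188 and 92.4 and then 608 and 391 miRNA-RPM, against 14.6 and 24.2 in LZ. The log2 fold change of LZ_T against LZ was 4.01 ± 0.60 (SE) with an adjusted p of 9.84e-10 in edgeR. In LZ_T its reads were about as many as those of Mir34c, at 445 and 784. Against SG_T its log2 fold change was 1.75 ± 0.63 (SE) and the edgeR adjusted p was 0.0903. Mir449c had 3 and 0 reads in SG_T and 5 and 2 in LZ_T, and its log2 fold change against LZ was -3.97 ± 0.82 (SE) with an adjusted p of 8.39e-06 in edgeR.

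The arms of Mir449a also differed between the sets. In LZ_T the 3' arm had 0 of 70 and 1 of 109 reads, against 181 of 810 and 174 of 705 in LZ. The share was 0.459% ± 0.649 (SD, n = 2) in LZ_T and 23.5% ± 1.65 (SD, n = 2) in LZ, and in LZ_T the upper limits of the 95% Wilson intervals were 5.20% and 5.01%. The 2-sided exact permutation test gave p = 0.333, which is the smallest that 2 against 2 samples allow. SG_T had 0 of 42 and 0 of 2 reads from this arm. For Mir34c the 3' arm made up 4.04% and 1.53% in LZ_T and 0.249% and 0.377% in LZ (exact permutation p = 0.333). The share for Mir34b was 81.5% and 66.7% in LZ_T and overlapped that of LZ.

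Added 3' ends were more frequent in LZ_T than in LZ for each of the 3 genes. On Mir34c they made up 29.5% and 30.2% of its reads in LZ_T, 21.2% and 15.8% in SG_T and 9.64% and 14.5% in LZ, with no overlap between LZ_T and either other group (exact permutation p = 0.333 for both). In the 50-bp runs of LZ_T the share was 44.4%, from 20 such reads beside 25 exact ones, and 29%, and in the 100-bp runs 28.3% and 30.5%. A single U made up 83.3% and 75.6% of these ends in LZ_T. The share for Mir34b was 29.9% and 32.8% in LZ_T and 12.7% and 11.9% in LZ, and that for Mir449a 30.7% and 27.3% in LZ_T and 14.0% and 15.2% in LZ, so neither overlapped. This comparison was chosen after its values were seen. Such ends were counted for these 3 genes alone, so how often other miRNAs carry them in either set was not tested. Here too they cannot be told apart from errors in the last bases of a read.

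**Figure D5:**
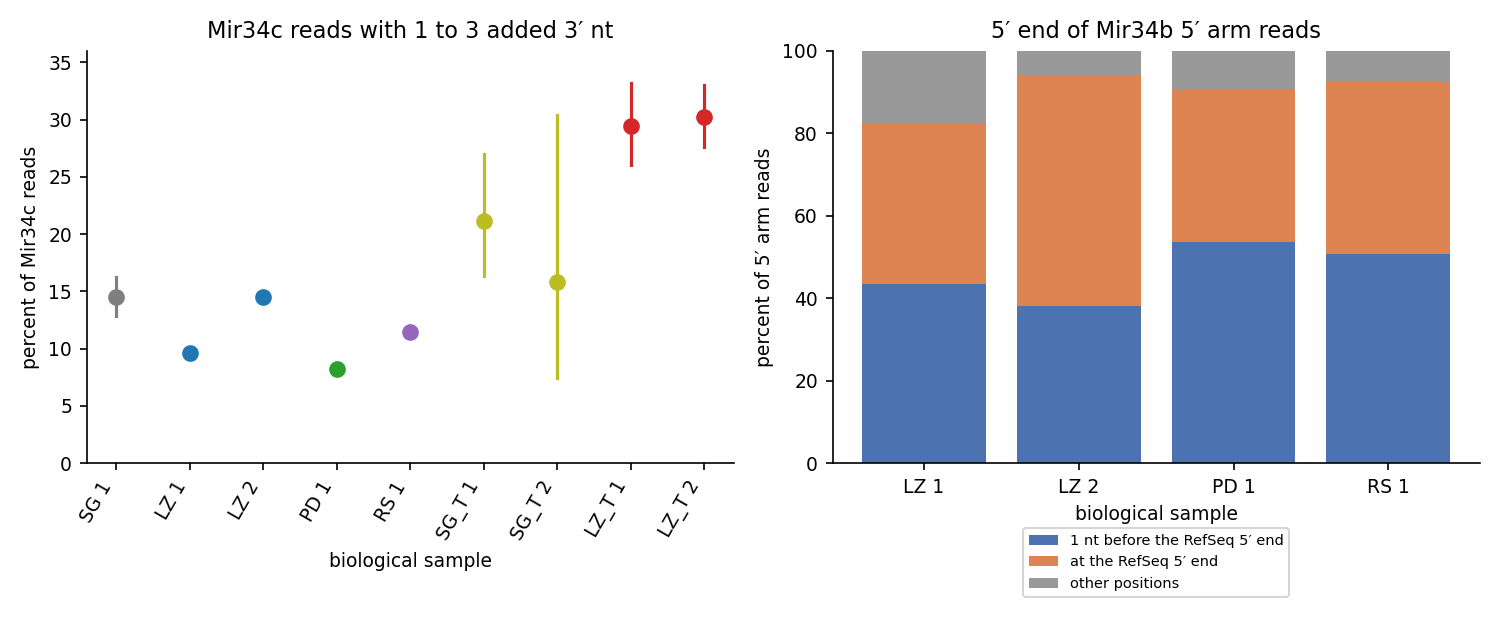
Left, percent of Mir34c reads with 1 to 3 added 3' nt in each biological sample, with 95% Wilson intervals; right, 5' ends of the 5' arm reads of Mir34b in the LZ, PD and RS libraries as percent of those reads. LZ_T lies at 29.5% and 30.2% in the left panel, and the 2 main starts of Mir34b each hold between 36.9% and 56.2% in the right panel.

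Across all 9 samples the 3 genes varied together. Pearson's r of log2 levels in miRNA-RPM was 0.97 for Mir34c and Mir449a, 0.97 for Mir34b and Mir449a and 0.94 for Mir34b and Mir34c. Of the 281 other miRNA genes with a mean of at least 100 miRNA-RPM, the 5 most like the sum of the 3 were Mir7210 (r = 0.99), Mir184 (0.98), Mir7222 (0.98), Gm24715 (0.97) and Mir7230 (0.97). These values describe 9 samples that share stages and sets, and have no p. Genes that shared most of their reads with a gene already named were left out of this ranking. Mir184, best known from the lens and cornea, measured 23.4 miRNA-RPM in SG, 250 and 189 in the LZ libraries, 4768 in PD cells and 4632 in RS, and between 6.60 and 38.1 in SG_T and LZ_T. Mir7210 measured 3.63 in SG, 191 and 86.2 in the LZ libraries, 3285 in PD cells and 2628 in RS, and had 0 reads in SG_T and LZ_T, as had Mir7222 and Mir7230, where 3 counts would be between 1.58 and 19.8 miRNA-RPM.

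Other miRNA groups of these cells took another course. The most abundant gene was Mir881, an X-linked miRNA of spermatocytes, in SG and LZ at 13.5% to 18.1% of miRNA reads, Mir871 of the X chromosome in SG_T, Mir881 and the muscle marker Mir143 in the 2 LZ_T samples, and Mir34c in PD and RS. The 14 X-linked miRNAs of spermatocytes summed to 37.4% of miRNA reads in SG, 44.1% in both LZ libraries, 23.7% in PD and 18.8% in RS, and to between 25.3% and 33% in SG_T and LZ_T. In LZ_T against LZ, 4 of the 14 were higher and 7 lower with a median log2 fold change of -0.92, and in LZ_T against SG_T none of the 14 passed edgeR's test, 0 had an unadjusted p under 0.05, and the median was -0.10. Of the list of 25 spermatogonial miRNAs, 23 were matched by name, and their sum stayed between 3.10% and 5.46% in every sample. In LZ_T against LZ, 8 of 20 tested were higher and 2 lower with a median of 0.88, and against SG_T 1 of 18 was higher and 0 lower with a median of 0.20. Of the 9 markers of other cells tested against SG_T, 1 was higher and 1 lower, with a median of -0.27.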

How the data were processed

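Small RNAs were sequenced from Hoechst-sorted germ cells with TruSeq small RNA libraries, 13 in all (9 biological samples in 6 groups). For each library the authors deposited raw counts of distinct sequences after adapter trimming, for which the submitters' processing notes name cutadapt, with no filter on abundant noncoding RNAs. The deposited tables of retrotransposon RPM values were not used here. No aligner or miRNA annotation is needed for these deposited counts; coordinates come from GENCODE M21 and RefSeq (GRCm38).

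Reads of 19 to 25 nt lying exactly in sense within a GENCODE miRNA transcript (2202 transcripts, 2201 genes) were counted, divided equally where they lay in several genes, and rounded. Identical copies of a miRNA can thus enter a count of genes as separate genes. Technical replicates were summed. Exact matching leaves out reads with edited or extended ends. edgeR 4.0.16 (quasi-likelihood, TMM, filterByExpr, Benjamini-Hochberg adjustment, threshold 0.05) was run in R 4.3.3 over all miRNA genes and tested on simulated data. Shares of arms and ends were compared with 2-sided exact permutation tests, and have 95% Wilson intervals. PCR reads carry no molecular identifiers, so intervals and floors (3 counts) cover counting error only. Total reads ranged from 1810805 to 29956080.

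Genes named are the 3 members, their seed relatives, the 5 genes with the highest correlation (mean of at least 100 reads in 1000000 miRNA reads), the most abundant gene of each group, and lists of X-linked, spermatogonial and other-cell miRNAs; the names Mir18a and Mir292a of the spermatogonial list were not matched. Genes that shared most of their reads with a gene already named were left out of the correlation ranking. Members and lists were chosen with earlier results of these data known. Alternatives covered scaling, DESeq2 1.42.0, filters, uniquely assigned reads, length, samples fitted, technical replicates, the replicate number and each sample left out. Arm and end shares were also computed over distinct sequences in place of reads.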

Additional observations from a re-analysis of the deposited data

Results flagged for a closer look

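By edgeR with TMM scaling, the step from SG to LZ was larger in the first set for Mir34c and Mir449a than in the second. This fit rests on 1 SG library, and neither call held with total reads as library size. In an edgeR fit over SG, LZ, SG_T and LZ_T (7 samples, 720 genes), a test chosen after seeing the data, Mir34c was higher in LZ than in SG by 4.53 on the log2 scale and higher in LZ_T than in SG_T by 1.02, a difference of 3.51 ± 0.77 (SE) with an adjusted p of 0.000432 in edgeR. For Mir449a the steps were 3.80 and 0.70, a difference of 3.10 ± 0.96 (SE) with an adjusted p of 0.0326 in edgeR. For Mir34b they were 3.89 and 1.45, a difference of 2.44 ± 1.07 (SE) with an edgeR adjusted p of 0.215. Of the 720 genes, 15 had a larger step in the first set and 28 a smaller one. The lone SG library is assumed to vary like the other groups, which no replicate checks. The call for Mir34c held without each of the 6 other samples in turn (differences of 3.04 to 3.94), but with total reads as library size the difference was 1.73 with an adjusted p of 0.135. The call for Mir449a was lost on that scale too, at 1.40 with an adjusted p of 0.390, and without any one of the samples other than SG_T replicate 2; without SG_T replicate 1 its difference was 1.43 with an adjusted p of 0.688, and without the others it was 2.72 to 3.24 with adjusted p-values of 0.0557 to 0.174. The miRNAs of other cells made up 1.71% of miRNA reads in SG and 5.18% to 9.39% in SG_T, and their part in the difference was not tested.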

How the results depend on the processing

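The lower level of the 3 genes in LZ_T than in LZ kept its direction and its call under all 42 alternatives run; without single samples, the log2 fold change ranged from -6.06 to -5.24 for Mir34c, from -3.89 to -2.91 for Mir34b and from -3.21 to -3.00 for Mir449a, and the edgeR or DESeq2 adjusted p over all alternatives reached at most 0.00112 for Mir34c, 0.0309 for Mir34b and 0.0366 for Mir449a. Against SG_T, 4 of 40 alternatives passed the threshold: total reads as library size for Mir34c (1.79) and Mir34b (2.2), all 9 samples in 1 fit for Mir34c (0.91, adjusted p = 0.0459 in edgeR), and the replicate block for Mir34b (1.81, adjusted p = 0.0256 in edgeR). Without single samples the values ranged from 0.85 to 1.16 for Mir34c, 0.83 to 8.24 for Mir34b and 0.46 to 2.09 for Mir449a; without SG_T replicate 1, Mir34b was compared with a single sample at 0 reads, so 8.24 is no bound. Technical replicate 1 alone left too few reads to test Mir34b and Mir449a against SG_T, and DESeq2 gave no adjusted p for Mir34b there. The genes higher and lower in LZ_T than in SG_T, 6 and 5, became 128 and 3 with total reads as library size, 10 and 20 with DESeq2, 18 and 30 with all 9 samples, 2 and 1 with technical replicate 1 alone and 56 and 37 with the replicate block. With no filter 0 were lower by edgeR (33 at an unadjusted p under 0.05). Without single samples the counts were 0 to 6 higher and 0 to 27 lower: 0 and 0 without LZ_T replicate 1 (39 and 33 at an unadjusted p under 0.05 in edgeR) and without SG_T replicate 2 (80 and 23), 1 and 0 without LZ_T replicate 2 (17 and 22), and 6 and 27 without SG_T replicate 1. The deviations of same-numbered samples correlated at 0.46 between LZ_T and SG_T and at -0.13 between LZ_T and LZ, and with 2 pairs the numbers are not taken as a pairing; the block changed no other call of the 3 genes.

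The genes higher in LZ_T than in LZ, 139, became 303 with total reads as library size, and the 187 lower ones 83 with that scale, 97 with only reads of 1 miRNA gene, 123 with reads of 20 to 24 nt and 89 with technical replicate 1 alone; without single samples they numbered 73 to 150 and 91 to 205, both lowest without LZ replicate 1. The log2 ratio of the summed members, 4.25 for LZ against SG, was 3.49 in RPM and 3.45 in RPM with added 3' nt counted; for PD against LZ it was 4.50, 1.93 and 1.87, and for RS against PD 0.52, 0.97 and 1.03, or 0.49 with only reads of 1 miRNA gene and 0.50 with 20 to 24 nt. Without single LZ libraries the first ratio was 3.92 to 4.52 and the second 4.23 to 4.83. The difference between the sets in the step from SG to LZ ranged from -4.63 to 2.93 for Mir34b without single samples, and reversed without SG_T replicate 1, where the remaining SG_T sample had 0 reads. Arm and 5' end shares left their counting interval in 38 of 72 alternatives. Most of these counted distinct sequences in place of reads, which is another quantity: the 3' arm of Mir34c in SG was 0.342% of reads and 16.7% of distinct sequences. With reads of 20 to 24 nt the largest change was that of the Mir34b 3' arm in LZ, from 74.2% to 76.8% with both libraries pooled. The cause of these changes was not tested. Depth limits the second set most: Mir34b and Mir449a had 0 and 2 reads in SG_T replicate 2.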
